A study of Mus musculus with 15 samples.

Results

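The glutathione S-transferases (Gst), UDP-glucuronosyltransferases (Ugt) and sulfotransferases (Sult) of mouse liver were followed over a circadian day by ribosome profiling, which sequences the mRNA fragments that ribosomes protect from nuclease. Members were chosen by gene symbol alone: Gst genes with a class letter and number, the Ugt1, Ugt2 and Ugt3 families, and all Sult genes. This gave 70 RefSeq transcripts of 63 genes, and the transcript with the most reads was kept for each gene. Of these genes 45 averaged 10 counts or more over the libraries and were tested, 20 of 22 Gst, 18 of 20 Ugt and 7 of 21 Sult, among 11747 genes tested in all. The livers came from wild-type male C57BL/6N mice aged 8 to 10 weeks, kept for 2 weeks in cycles of 12 h of light and 12 h of darkness, moved to constant darkness for 24 h, and killed every 4 h from CT0 to CT24 (CT, circadian time in h), with 2 mice at each of 7 times and 1 library per mouse. There was no other treatment or genotype.

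These 3 families carry out the conjugating step of detoxification. Gst enzymes join glutathione to reactive, electrophilic compounds. Enzymes of the Ugt1 and Ugt2 families transfer glucuronic acid from UDP-glucuronic acid to bilirubin, steroids and drugs. Sult enzymes transfer a sulfonate group from the donor PAPS to phenols, steroids and bile acids. The products are more soluble and leave the hepatocyte through membrane exporters into bile or blood. Many of the genes lie in tandem clusters of close relatives, so that a footprint can match more than 1 of them.

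Total counts per library ranged from 40593197 to 90458783. The hepatocyte marker list, with 8 of 8 genes above the minimum, summed to between 40410 and 56135 CPM (read counts brought to a common library size, scaled by TMM) in every library. The list of pancreatic acinar genes, 8 of 8 above the minimum, summed to 3716 CPM in CT20 replicate 2 and to between 2.55 and 73.5 in the others, and the 24 h fit of the counts was also made without that library. The lists for macrophages (60.2 to 113 CPM), stellate cells (57 to 83.8), endothelium (59.3 to 100) and bile duct (2.35 to 13.5) were each highest in CT0 replicate 1, and the erythroid list (36.1 to 73.5) in CT4 replicate 1. Their sums had fitted 24 h differences (log2) of 0.34, 0.36, 0.32, 1.23 and 0.48, with peaks at 4.0, 4.1, 4.2, 23.9 and 1.1 h, and that of hepatocytes 0.20 at 17.9 h, and the part of these lists in the results was not tested. The kidney tubule list, with 1 of 8 genes above the minimum and Kap, Aqp2 and Slc12a1 at 0, summed to 0.272 to 1.47 CPM. The intestinal list, with 2 of 7 above the minimum and Sis, Alpi and Muc2 at 0, summed to 38.8 to 65.1. All nonzero counts of CT16 replicate 2 were even, and dividing them by 2 left the same 12 members called. In whole liver, fewer cells of a type and fewer footprints per cell cannot be told apart.

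The Ugt1a genes illustrate how these counts must be read. In the genome the locus has a row of alternative exons, each with its own promoter, that are spliced to 1 set of shared exons, so that each enzyme has its own substrate-binding part and all have the same UDP-glucuronic acid-binding part. The 30 bases around the junction are shown because they mark where the sequence common to all 8 genes begins: lower case is the last 15 bases of a gene's own exon and capitals are the first 15 bases of the shared exon, which begins at position 88215044 of chromosome 1 (GRCm38.p6, plus strand).
Ugt1a10: aagccactttccaagGAATTTGAAGCCTAT
Ugt1a9: aagtcactttccaagGAATTTGAAGCCTAT
Ugt1a6a: ggaaagctgactcagGAATTTGAAGCCTAT
Ugt1a5: aagcccctctctcagGAATTTGAAGCCTAT
Ugt1a1: aagcccctatcccagGAATTTGAAGCCTAT
Ugt1a7c had the junction of Ugt1a10, Ugt1a6b that of Ugt1a6a, and Ugt1a2 that of Ugt1a5, and 738 bases of coding sequence follow in every one of the 8 genes. The 3′UTR counts of the 8 genes were identical within each of the 14 libraries, so the deposited counts gave every read of the shared exons to every Ugt1a gene.

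The Ugt1a2 count was the lowest, or tied for the lowest, of the locus in 14 of 14 libraries, with a mean of 11367 reads. Subtracting it left the reads of each gene's own exons, where Ugt1a1, the enzyme that conjugates bilirubin, had 9387 reads per library on average and Ugt1a9, which acts on phenols, 1466. The own exons of Ugt1a6a held 959 reads, those of Ugt1a6b 869 and those of Ugt1a5 336, whereas Ugt1a10 was left with 18 and Ugt1a7c with 7.79. Ugt1a1 made up 71.9% of these reads, between 66.4% and 77.7% over the libraries, and Ugt1a9 made up 11.2%, between 6.91% and 16.3%. In RPKM (reads of the CDS per kilobase, relative to the total count of the library), the own coding parts added up to 253 ± 63.2 (SD, n = 14) and the shared part had 261 ± 65.2. The ratio of the 2 densities was 0.96 in the median library, with a range of 0.865 to 1.11. A level printed for a single Ugt1a gene below therefore holds the translation of the whole locus, and the reads of the own exon of Ugt1a2 cannot be separated in this way. In Ugt1a6a and Ugt1a6b 90.1% and 85.9% of the 28-mers occur in other genes, compared with 71.6% in Ugt1a1. Their own exons lie at separate places and only reads with a single place in the genome were used, so the own-exon counts of this pair can be too low.

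**Figure D1:**
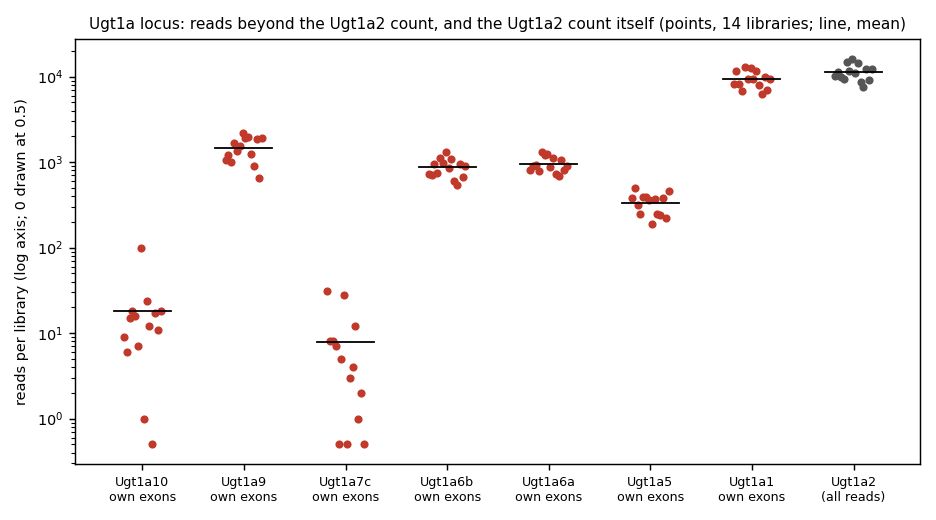
Reads of the Ugt1a locus in each of 14 libraries on a log axis: for 7 genes the count beyond that of Ugt1a2, which leaves the reads of the gene's own exons, and at the right the Ugt1a2 count, which holds the shared exons; lines are means. Ugt1a1 had a mean of 9387 reads in its own exons, and Ugt1a7c and Ugt1a10 had fewer than 20.

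Other members share sequence between separate loci. Among the 45 members, 14 had over 50% of their 28-mers, the length of a typical footprint, also in a transcript of another gene: the 8 Ugt1a genes, Gsta1 (94.1%), Gsta2 (76.2%), Gstp1 (75.2%), Gstp2 (74.3%), Ugt2b5 (57.5%) and Ugt2b38 (54.7%). Another 21 members had under 5%. Gstp1 and Gstp2 share their 28-mers mainly with each other, yet Gstp1 had a mean of 51675 counts and Gstp2 of 40.4, so the shared footprints of separate loci were not added to both. By the study's methods reads without a single place in the genome were left out, which lowers the counts of these genes other than at the shared Ugt1a exons, a single place, and leaves their levels uncertain.

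Footprint density in RPKM placed 3 Gst genes at the top. Gstm1 had 867 ± 228 (SD, n = 14), Gstp1, which is known for its high level in male mouse liver, 833 ± 214, and Gsta3, the enzyme that protects mice from aflatoxin, 793 ± 268. The ranges of the 3 overlapped, with libraries between 519 and 1401 for Gstm1, 529 and 1307 for Gstp1, and 376 and 1238 for Gsta3. Together with Gstz1, which has a metabolic role in tyrosine breakdown and a density of 237 ± 59.2, they took most of the reads of the family. Over the whole transcript, UTRs included, the densities were 1172 for Gstp1, 452 for Gstm1 and 373 for Gsta3, so the order of the first 2 depends on the region counted. Of the reads, 34.2% fell on Gstp1, 22.7% on Gstm1, 20.8% on Gsta3 and 6.12% on Gstz1. The reads of the family as a whole made up 0.157% to 0.39% of a library.

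Among the Ugt genes Ugt2b1 had the highest density at 273 ± 32.2, followed by Ugt1a1 at 218 ± 55.3, which includes the shared exons, and Ugt2b36 at 154 ± 20.1. The Ugt1a locus with its shared reads counted once held 21.1% of the Ugt reads, Ugt2b1 22.8%, Ugt2b36 13.1%, Ugt2b5 10.7% and Ugt2b34 10.5%. The sulfotransferases were dominated by 1 gene: Sult2a8, which sulfates bile acids, had a density of 247 ± 42.8 and 65.8% of the Sult reads. Sult1a1, the phenol sulfotransferase, followed with 81 ± 33.6 and Sult1d1, which acts on phenols and amines, with 36.1 ± 21.4. Over the whole transcript the densities were lower and Ugt2b36 stood above Ugt1a1: 171 for Ugt2b1, 131 for Ugt2b36, 109 for Ugt1a1, 118 for Sult2a8, 59.8 for Sult1a1 and 15.8 for Sult1d1.

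**Figure D2:**
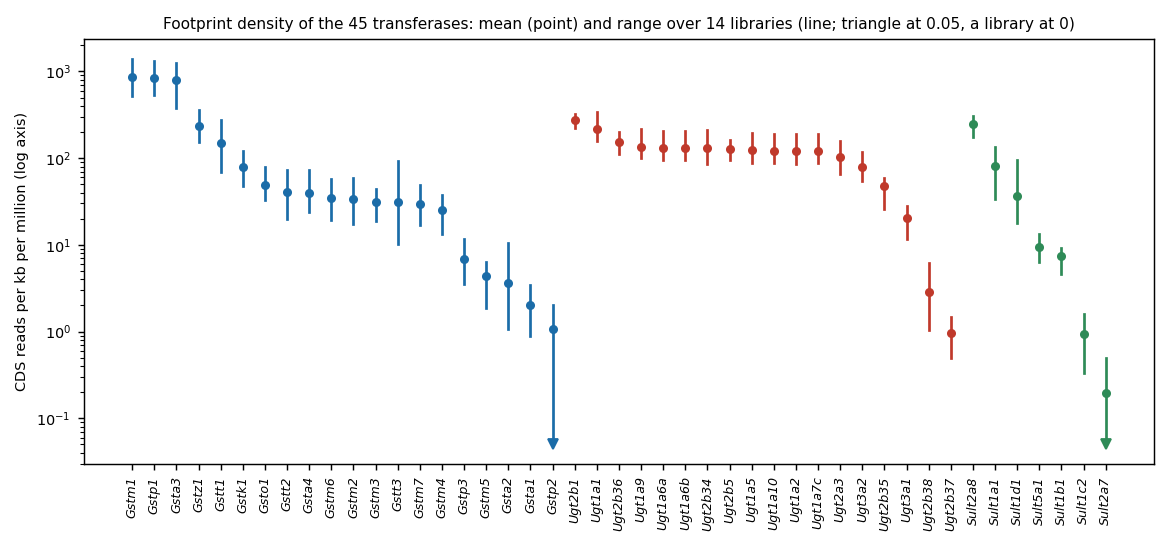
CDS footprint density (RPKM, log axis) of the 45 members in families, with the mean as a point and the range over 14 libraries as a line. Densities ran from 867 for Gstm1 down to 0.195 for Sult2a7, and the 8 Ugt1a genes lie at a similar height because each includes the shared exons.

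The other 18 members had means under 10 counts, 14 of them sulfotransferases. Sult2a1, Sult3a1 and Sult1e1, which sulfate steroids and related compounds and of which the Sult2a and Sult3a genes are known for expression in female mouse liver, had 4, 2 and 9 counts over all libraries together. In 7 genes (Gstt4, Sult1c1, Sult2a2, Sult2a3, Sult2a5, Sult3a2 and Sult6b1) no library had a count. Just above the minimum was Sult2a7 with a mean of 10.5 counts, and just below it Gsto2, an omega class enzyme, with 3.71.

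Position of the footprints within the transcript differed widely between members. In Gstp1 39% of the reads lay in the 49 bases of 5′UTR, between 31.1% and 44.9% over the 14 libraries, in Gsta2 36.2% (14.4% to 72.4%) and in Gstt2 26.7% (16.2% to 36.5%). These were the 3 members over 25%, a level passed by 7.7% of all genes tested, and the median of all genes was 3.64%. Per base, the 5′UTR of Gstp1 held 8.37 times as many reads as its CDS. In Gstp1 and Gsta2 most 28-mers are shared with other genes, and the part of reads left out for that reason in these shares was not tested. In contrast, 22 of the 45 members had under 1% of their reads there, compared with 31% of all genes, and Ugt2b34 was at 0.0819%. Among the 22 were the 8 Ugt1a genes, which share reads and so are not separate observations. Gstp3 and Sult2a7, with a 5′UTR of 0 bases in the files, and Ugt2b1, with 5, were also among them. In Sult1a1 16.9% of the reads lay in the 3′UTR, where the median gene had 0.18%. The 5′UTR share of Gsta2 and Gstp1, and the 3′UTR share of Sult1a1, are named here after their values were seen.

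Summed over each family, footprints were at 2127 to 2950 CPM for Gst, with the highest mean at CT20 (2766) and the lowest at CT12 (2202). With the shared Ugt1a reads counted once, the Ugt genes summed to 1547 to 2230 CPM, with means of 1588 at CT0 and 2186 at CT12, and the Sult genes to 270 to 496 CPM, with means of 280 at CT0 and 439 at CT12. These orders hold for TMM scaling only. Scaled by the total count, the highest means were 3243 at CT0 for Gst, 2305 at CT16 for Ugt and 471 at CT16 for Sult, and the lowest were 1804 at CT12, 1666 at CT8 and 328 at CT4.

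A 24 h cosine curve was then fitted to the counts of every gene (edgeR, quasi-likelihood F test, TMM scaling), with Benjamini-Hochberg adjustment over all 11747 genes. An adjusted p under 0.05 was reached by 12 of the 45 members (26.7%), against a background of 10.6% of all genes. They were Gsta3, Gstm4, Gstm6, Gstt1, Gstt2 and Gstt3 among the Gst genes, Ugt2b5, Ugt2b34, Ugt2b35 and Ugt2b36 among the Ugt genes, and Sult1a1 and Sult1d1 among the Sult genes. The members had more reads than most genes, with a median mean count of 3180 against 239 over all genes. With a minimum mean of 100 counts, 13 of 40 members passed, against 16% of 8222 genes. None of the 8 Ugt1a, 3 Gstp or 2 Ugt3a genes passed in edgeR, with 0 of them at an unadjusted p under 0.05 and 0 by DESeq2 or JTK_CYCLE. Of the 33 members that did not pass, 7 had an unadjusted p under 0.05, and their adjusted p ran from 0.0579 for Gsta2 to 0.975 for Gstp2, both named after their values were seen. The fitted peak-to-trough difference of the 12 ran from 0.50 to 1.44 on the log2 scale, with a median of 0.67, compared with 0.96 over the 1251 rhythmic genes. The median over all 45 members was 0.44, as it was over all genes tested. The members include the 8 Ugt1a genes, which largely hold the same reads, and have higher counts, so the medians are not of like sets. The 12 had means of 1028 counts or more. With TMM scaling their peaks fell at all parts of the day, 2 before CT6, 3 between CT6 and CT12, 3 between CT12 and CT18 and 4 after CT18. Of the 1251 rhythmic genes, 237, 263, 395 and 356 had their peaks in these parts. Scaling by the total count moved the 3 peaks between CT6 and CT12 to 5.4 h (Ugt2b35), 14.3 h (Ugt2b5) and 15.9 h (Ugt2b36).

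The count of 12 members depended on the scaling and on single mice. The TMM factors ran from 0.74 to 1.46 and themselves had a 24 h component of 0.46 ± 0.19 (log2, SE) with its peak at 22.4 h, so that scaling by the total count adds a common curve to every gene. With that scaling 6 members passed, 4 Gst, 0 Ugt and 2 Sult, against 7.77% of all genes, and 5 of them were among the 12: Gsta3, Gstm6, Gstt3, Sult1a1 and Sult1d1. The other was Gsta2 (adjusted p = 0.031). Of the 18 Ugt genes 1 then had an unadjusted p under 0.05. With each library left out in turn the number ran from 6 (without CT12 replicate 1) to 13 (without CT20 replicate 1 or CT20 replicate 2), and it was 7 without CT0 replicate 1, CT4 replicate 2 or CT12 replicate 2. Without CT20 replicate 2, the library with acinar reads, all 12 remained among the 13. By the rank test JTK_CYCLE on TMM-scaled CPM, whose p is adjusted within but not across genes, 12 members passed, 8 of them shared with the 12 of edgeR, against 17.5% of all genes. It left out Gstm6, Gstt1, Gstt3 and Sult1a1 and called Gsta4, Gsto1, Sult1b1 and Sult2a8. With time as a factor in edgeR, 5 members passed: Gsta3, Gstt2, Gstt3, Sult1a1 and Ugt2b5. Without both CT24 libraries Gstm4, Gstm6, Gstt1 and Gstt3 were lost, with CDS reads only Gstt1, with upper-quartile scaling Ugt2b36, and with a minimum mean of 1 count Gstm4 and Ugt2b36.

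**Figure D3:**
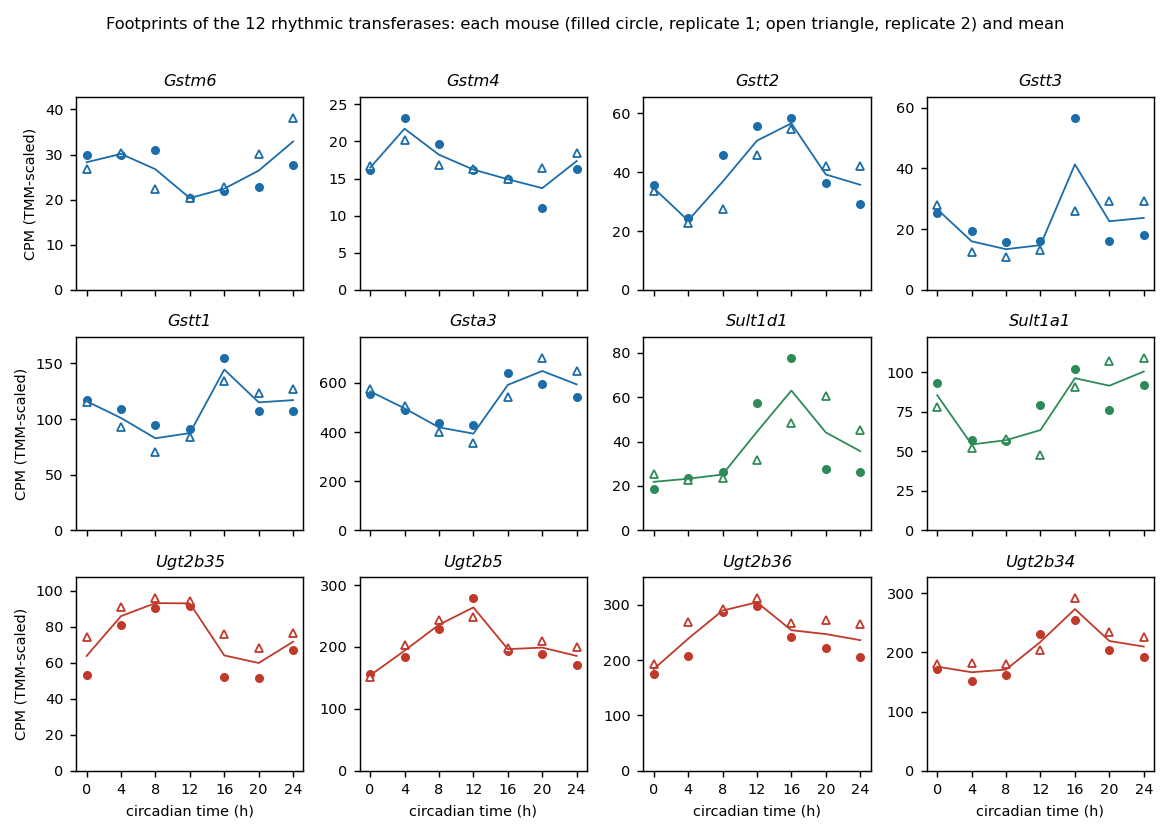
Footprints of the 12 members that passed the 24 h fit, in TMM-scaled CPM on axes that start at 0, against circadian time in h; filled circles and open triangles are the 2 mice of a time and the line joins their means. Ugt2b35 was highest at CT8 and CT12, Ugt2b34, Gstt1, Gstt2, Gstt3 and Sult1d1 at CT16, and Gsta3 at CT20.

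Gsta3 had the lowest adjusted p of the families (0.00339). Its footprints were 554 and 577 CPM in the 2 mice at CT0, 489 and 504 at CT4, 438 and 400 at CT8, 430 and 357 at CT12, 640 and 544 at CT16, 595 and 702 at CT20, and 541 and 647 at CT24. Every mouse from CT16 to CT24 lay above every mouse of CT8 and CT12. The fitted peak was at 20.8 ± 0.6 h (SE) with a peak-to-trough difference of 0.69 ± 0.11, a fold of 1.61, and the adjusted p stayed under 0.05 in all 14 fits with a library left out and in all 16 other alternatives. Scaling by the total count raised the difference to 1.14. Its 3 relatives on chromosome 9, named after their values were seen, did not pass in edgeR with TMM scaling. Gsta2 had its fitted peak at 19.8 h (adjusted p = 0.0579), Gsta4, which conjugates 4-hydroxynonenal, at 19.2 h (0.0774) and Gsta1 at 17.1 h (0.0956).

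The theta class genes Gstt1, Gstt2 and Gstt3, which act on small halogenated compounds, lie side by side on chromosome 10 (GRCm38.p6; Gstt3 at chr10:75774117-75781422, Gstt1 at chr10:75783813-75798584 and Gstt2 at chr10:75831842-75837419), and all 3 passed. Gstt2 was at 35.8 and 33.5 CPM at CT0, 24.3 and 22.9 at CT4, 46 and 27.5 at CT8, 55.6 and 45.9 at CT12, 58.6 and 54.7 at CT16, 36.2 and 42.3 at CT20, and 29.3 and 42.2 at CT24. It was lowest at CT4 and highest at CT16, 2.4-fold apart, with a fitted peak at 15.4 ± 0.7 h, a difference of 1.00 ± 0.20 and an adjusted p of 0.00496. It passed in all 14 fits with a library left out and in 15 of the 16 other alternatives, the exception being scaling by the total count (adjusted p = 0.1, difference 1.03).

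Gstt1 had its low values later. It went from 117 and 115 CPM at CT0 to 109 and 92.9 at CT4, 94.8 and 70.6 at CT8 and 90.6 and 84.1 at CT12, and then stood at 155 and 134 at CT16, 107 and 123 at CT20, and 107 and 127 at CT24. Its peak was at 19.6 ± 0.9 h with a difference of 0.65 ± 0.17 (adjusted p = 0.0371). Gstt3 was at 25.3 and 27.8 at CT0, 19.5 and 12.5 at CT4, 15.8 and 11 at CT8, 16.2 and 13.3 at CT12, 56.7 and 25.9 at CT16, 16 and 29.2 at CT20, and 18.2 and 29.2 at CT24. The 2 mice of CT16 were more than 2-fold apart, and the fit gave a peak at 18.9 ± 1.2 h with a difference of 1.37 ± 0.41 (adjusted p = 0.0399). Gstt1 passed in 5 and Gstt3 in 6 of the 14 fits with a library left out, both when CT4 replicate 1, CT16 replicate 1, CT20 replicate 1, CT20 replicate 2 or CT24 replicate 1 was out and Gstt3 also without CT24 replicate 2, and their adjusted p rose to 0.148 and 0.115 without CT8 replicate 2. Under scaling by the total count Gstt1 did not pass (adjusted p = 0.0738) although its difference was larger, 1.09.

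The mu class genes form a cluster on chromosome 3. Gstm6 had 29.8 and 26.8 CPM at CT0, 29.9 and 30.4 at CT4, 31.1 and 22.4 at CT8, 20.3 and 20.4 at CT12, 22 and 22.9 at CT16, 22.8 and 30.1 at CT20, and 27.6 and 38.2 at CT24, with a peak at 1.8 ± 1.0 h and a difference of 0.58 ± 0.13 (adjusted p = 0.0345). Gstm4 had 16.2 and 16.7 at CT0, 23.2 and 20.2 at CT4, 19.6 and 16.8 at CT8, 16.1 and 16.3 at CT12, 14.9 and 14.9 at CT16, 11 and 16.4 at CT20, and 16.3 and 18.4 at CT24, with a peak at 5.5 ± 0.8 h and a difference of 0.56 ± 0.13 (adjusted p = 0.0447). Both were low in the subjective night, Gstm6 at CT12 and CT16 and Gstm4 at CT16 and CT20. Gstm1, the abundant member of the class, was at 473 to 712 CPM with a fitted difference of 0.14 (adjusted p = 0.791), and 0.59 (0.23) under scaling by the total count. Gstm4 passed in 2 of 14 fits with a library left out (CT8 replicate 2 or CT20 replicate 2), with an adjusted p of up to 0.15 without CT4 replicate 1, and of 0.248 under scaling by the total count, where its difference was 0.59. Gstm6 passed in 6 (CT0 replicate 2, CT8 replicate 1, CT8 replicate 2, CT20 replicate 1, CT20 replicate 2 or CT24 replicate 1), with up to 0.0932 without CT12 replicate 2, and its difference was 0.93 under scaling by the total count.

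Of the other classes, Gstp1 was at 513 to 1220 CPM, with the highest and a low value in the 2 mice of CT24 (1220 and 650), and did not pass (fitted difference 0.37, adjusted p = 0.482). Gstz1 was at 137 to 180 CPM with a fitted difference of 0.06 (adjusted p = 0.948). Scaling by the total count gave them differences of 0.59 (0.221) and 0.50 (0.353).

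The Ugt2b genes that passed lie within 1 cluster on chromosome 5 (GRCm38.p6), in the order Ugt2b34 (chr5:86889770-86906937), Ugt2b35 (chr5:87000860-87013274), Ugt2b36 (chr5:87065927-87092555) and Ugt2b5 (chr5:87124946-87140340). Enzymes of this family conjugate steroids, bile acids and drugs. Ugt2b35 was at 53 and 74.6 CPM at CT0, 80.8 and 91.2 at CT4, 90.5 and 96 at CT8, 91.8 and 94.4 at CT12, 51.9 and 76.3 at CT16, 51.5 and 68.3 at CT20, and 67 and 76.5 at CT24. All mice from CT4 to CT12 lay above all other mice, with a fitted peak at 8.1 ± 0.8 h, a difference of 0.72 ± 0.16 and an adjusted p of 0.0147. Ugt2b34 was highest later, with 172 and 180 at CT0, 151 and 182 at CT4, 161 and 181 at CT8, 231 and 205 at CT12, 255 and 292 at CT16, 204 and 235 at CT20, and 193 and 227 at CT24. Its peak was at 16.7 ± 0.6 h, its difference 0.66 ± 0.12 and its adjusted p 0.00641. Both kept an adjusted p under 0.05 in all 14 fits with a library left out, but not under scaling by the total count, where it was 0.442 for Ugt2b35, with a smaller difference of 0.42, and 0.0676 for Ugt2b34, with a larger one of 0.89.

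Ugt2b5 and Ugt2b36 both had their highest mean at CT12. Ugt2b5 was at 157 and 151 CPM at CT0, 184 and 204 at CT4, 229 and 243 at CT8, 279 and 249 at CT12, 194 and 199 at CT16, 188 and 210 at CT20, and 171 and 200 at CT24, with a peak at 11.1 ± 0.8 h and a difference of 0.54 ± 0.11 (adjusted p = 0.0113, and 0.0503 without CT12 replicate 1). Ugt2b36 was at 174 and 193 at CT0, 208 and 269 at CT4, 287 and 292 at CT8, 297 and 312 at CT12, 241 and 267 at CT16, 221 and 273 at CT20, and 206 and 266 at CT24, with a peak at 11.4 ± 1.1 h and a difference of 0.50 ± 0.14. Its adjusted p of 0.0485 stayed under 0.05 in 3 of the 14 fits with a library left out (CT16 replicate 1, CT20 replicate 2 or CT24 replicate 2) and was 0.111 without CT12 replicate 2. Under scaling by the total count neither gene passed, with fitted differences of 0.14 for Ugt2b5 (adjusted p = 0.859) and 0.16 for Ugt2b36 (adjusted p = 0.841). Ugt2b1, the Ugt gene of highest density, was between 317 and 529 CPM with the peak of its fit at 12.3 h and did not pass (difference 0.35, adjusted p = 0.234, and 0.22 and 0.715 under scaling by the total count).

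**Figure D4:**
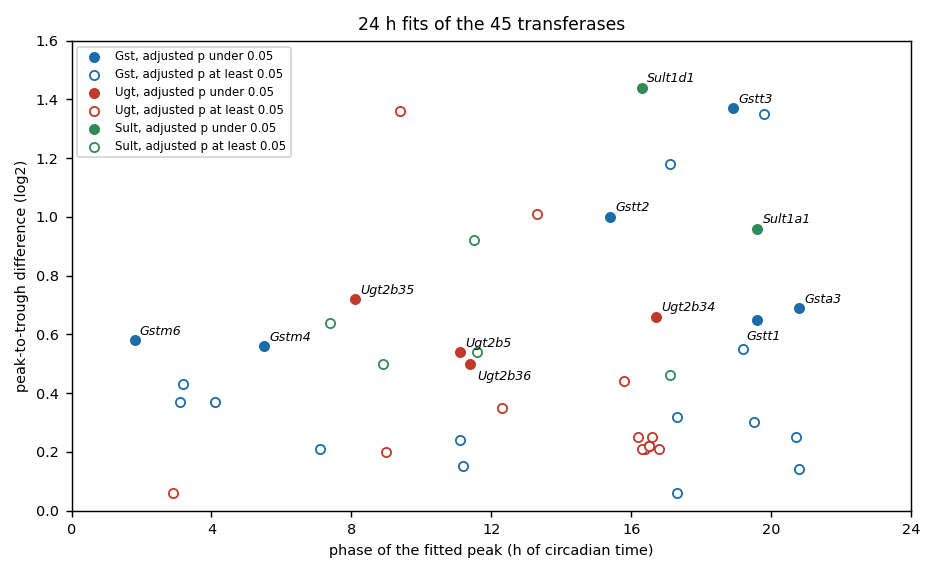
Phase of the fitted peak (h) against the peak-to-trough difference (log2) for the 45 members, filled where the adjusted p of the edgeR fit was under 0.05. The 12 filled points run from Gstm6 at 1.8 h to Gsta3 at 20.8 h, and the 8 Ugt1a genes coincide near 16.5 h because they share reads.

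A ratio of 2 genes within a library does not depend on the scaling, so the courses of rhythmic genes of 1 cluster were also set side by side that way. The 10 pairs were chosen because both genes had passed the fit on the same libraries, so the ratios are a description with no test. Ugt2b34 over Ugt2b35 had a fitted trough-to-peak difference of 1.26 ± 0.14 (log2, SE), with a mean log2 ratio of 0.87 at CT8 and 2.11 at CT16, and the peaks of the genes were 8.6 h apart. For Ugt2b34 the difference was 0.75 ± 0.13 against Ugt2b36 and 0.81 ± 0.13 against Ugt2b5. For Ugt2b35 it was 0.57 ± 0.13 against Ugt2b36 and 0.53 ± 0.15 against Ugt2b5. The ratio of Ugt2b36 over Ugt2b5 had the smallest difference of the 10, 0.05 ± 0.09, with all libraries between 0.09 and 0.42.

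In the Gstt cluster, Gstt1 over Gstt2 had a difference of 0.92 ± 0.17, with a mean of 0.78 at CT12 and 2.07 at CT4. It was 1.05 ± 0.31 for Gstt3 over Gstt2 and 0.57 ± 0.27 for Gstt3 over Gstt1. For Gstm6 over Gstm4 it was 0.53 ± 0.11, with a mean of 0.32 at CT12 and 0.94 at CT20.

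**Figure D5:**
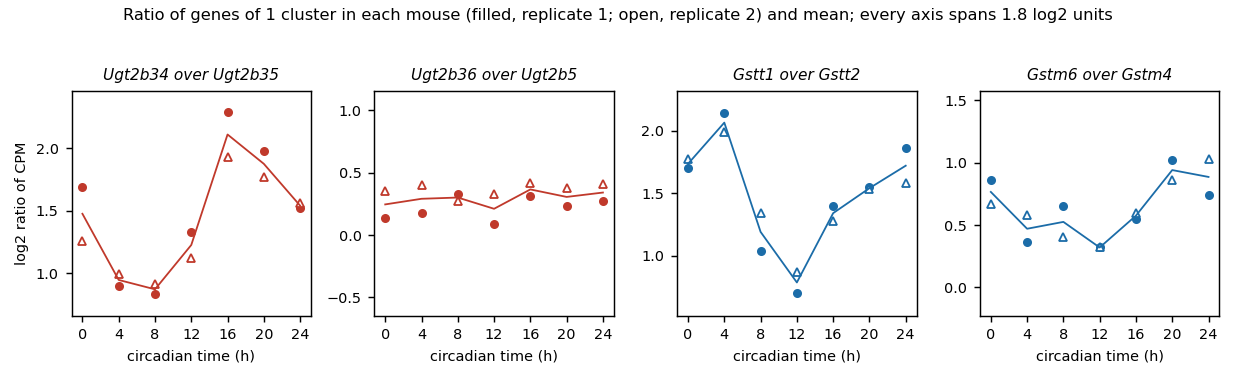
Log2 ratio of CPM of genes of 1 cluster in each of the 14 mice against circadian time in h, with the line through the means and an equal span on every axis. Ugt2b34 over Ugt2b35 had means of 0.87 at CT8 and 2.11 at CT16, whereas Ugt2b36 over Ugt2b5 stayed between 0.09 and 0.42.

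Sult1d1 had the largest fitted difference of the 12 with TMM scaling and all libraries, 1.44 ± 0.35. Under scaling by the total count its difference was 1.62 and that of Gstt3 was larger, 1.85. Sult1d1 lies in the neighbourhood of the Ugt2 genes, at chr5:87554650-87569006. Its footprints were 18.4 and 25.3 CPM at CT0, 23.8 and 22.7 at CT4, 26.5 and 23.8 at CT8, 57.3 and 31.6 at CT12, 77.8 and 48.3 at CT16, 27.7 and 60.6 at CT20, and 26.2 and 45.2 at CT24. The first 6 mice, CT0 to CT8, stayed within 18.4 and 26.5, whereas the mice of a time from CT12 on were often far apart. The peak was at 16.3 ± 0.9 h (adjusted p = 0.00785, and 0.0413 without CT16 replicate 1).

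Sult1a1 peaked later, at 19.6 ± 0.8 h, with a difference of 0.96 ± 0.21 (adjusted p = 0.00779). It was at 92.9 and 77.9 CPM at CT0, 56.8 and 51.7 at CT4, 56.2 and 57.7 at CT8, 79.3 and 47.4 at CT12, 102 and 90.3 at CT16, 75.8 and 107 at CT20, and 91.7 and 109 at CT24. The lowest mice were those of CT4 and CT8 and 1 mouse of CT12. It did not pass by JTK_CYCLE. The abundant Sult2a8 ranged from 145 and 175 at CT0 to 339 and 284 at CT12, and with a fitted difference of 0.54 at 11.6 h did not pass in edgeR (adjusted p = 0.138), nor under scaling by the total count (difference 0.17, adjusted p = 0.831), by which JTK_CYCLE did not call it either, though it did on TMM-scaled CPM. The other 4 Sult genes had edgeR adjusted p between 0.133 and 0.88, and JTK_CYCLE called 1 of them, Sult1b1.

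For the Ugt1a locus the fit gave differences of 0.21 to 0.25 and adjusted p between 0.37 and 0.522, and under scaling by the total count 0.54 to 0.58 and 0.243 to 0.291. With the Ugt1a2 count subtracted, TMM scaling and all libraries, Ugt1a1 had a difference of 0.29 (adjusted p = 0.323), Ugt1a9 of 0.49 (adjusted p = 0.469) and Ugt1a5 of 0.56 (adjusted p = 0.181), so none of them passed on its own exons either.

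Genes that supply, regulate or complement the transferases were examined as a list of 49, of which 43 were tested and 10 passed (23.3%, against 10.6% of all genes). The list was chosen with earlier results of these data known. Under scaling by the total count 6 passed, and Gss (adjusted p = 0.996, difference 0.03), Ugp2 (0.312, 0.46), Ppara (0.44, 0.41) and Abcc2 (0.136, 0.59) did not. In glutathione supply 2 of 5 passed: Gclc, the catalytic subunit of the enzyme that limits glutathione synthesis, with a peak at 2.8 ± 0.4 h and a difference of 1.03 ± 0.10 (adjusted p = 7.94e-05), and Gss, glutathione synthetase, at 10.3 ± 0.9 h with 0.53 ± 0.11. Gss was also lost without CT8 replicate 1, CT12 replicate 1 or CT12 replicate 2, with an adjusted p of up to 0.072, and with time as a factor (0.221). The modifier subunit Gclm, named after its values were seen, had a difference of 0.24 (adjusted p = 0.366), and 0.42 (0.359) under scaling by the total count. In the supply of UDP-glucuronic acid 1 of 3 passed, Ugp2, which makes UDP-glucose, between 80.7 CPM at its lowest time and 180 at its highest, with a peak at 11.2 ± 0.8 h and a difference of 0.89 ± 0.17. In the supply of PAPS 0 of 4 passed in edgeR, 1 of them had an unadjusted p under 0.05, and DESeq2 and JTK_CYCLE called 0. The difference of Papss2, again named afterwards, was 0.49 (adjusted p = 0.123), and 0.77 (0.18) under scaling by the total count.

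Among the exporters 1 of 5 passed, Abcc2, the pump that moves conjugates into bile, with 120 CPM at its lowest and 256 at its highest time, a peak at 11.4 ± 0.5 h and a difference of 1.02 ± 0.12 (adjusted p = 7.75e-05). Among other conjugating enzymes 3 of 11 passed, among them Nnmt, which methylates nicotinamide, at 16.5 ± 0.6 h with 1.36 ± 0.22, and Nat8, which acetylates cysteine conjugates, at 20.0 ± 0.7 h with 1.27 ± 0.22. Of the regulators 3 of 12 passed, Dbp at 11.2 ± 0.5 h with 6.62 ± 0.64 and Tef at 12.9 ± 0.5 h with 2.56 ± 0.26, both clock-controlled activators, and Ppara, a fatty acid receptor, at 11.1 ± 1.0 h with 0.82 ± 0.19. The xenobiotic sensors Nr1i2, Nr1i3, Ahr and Nfe2l2, named after their values were seen, had adjusted p of 0.105, 0.175, 0.316 and 0.799. Of the 3 hydrolases that remove glucuronide or sulfate groups 0 passed in edgeR, 2 had an unadjusted p under 0.05, DESeq2 called 1 of them (Arsa) and JTK_CYCLE called 0.

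The promoters of 38 of the 45 members were found in the RefSeq table for GRCm38 (250 bases before to 50 after the start) and searched on both strands for 5 short motifs, none of which contains another, although TAGGTCA read on the opposite strand begins with TGAC as TGACNNNGC does. The E-box CACGTG was in 0 of the 38, compared with 7.15% of 32851 promoters, and the D-box (TTATGTAA or TTACGTAA) in 1, compared with 1.06%. The ROR element TAGGTCA was in 2 (2.61% of all), the antioxidant response element TGACNNNGC in 2 (12.4%) and the xenobiotic response element TNGCGTG in 3 (5.07%). The windows of the 2 rhythmic members that held a match are shown, 5′ to 3′ on the strand of the gene with the match in capitals: in Gsta3 the antioxidant response element, 121 bases before the start, and in Sult1d1 the xenobiotic response element, on the opposite strand and 47 bases before the start.
Gsta3: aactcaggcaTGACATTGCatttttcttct
Sult1d1: gctgttaacaaCACGCAAaacatggaggtg
The first lies on chromosome 1 from 21240454 to 21240483 and the second on chromosome 5 from 87569035 to 87569064.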

How the data were processed

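The authors deposited unnormalized counts in 14 files, 1 per mouse. Each lists 28167 RefSeq transcripts with the reads in the CDS and in either UTR, and the lengths of these 3 regions. Per the study's methods, reads were aligned to mm10 after removal of rRNA, those that matched the genome exactly and at a single place were kept, and those of 26 to 32 nt were assigned to an A site; the submitters' processing notes name Bowtie2 2.1.0.0, SAMtools 0.1.19.0 and FastQC. A read in an exon of several transcripts was counted in each, as the Ugt1a counts show. A second run of CT16 replicate 2 had no file of its own. The last pair carries CT24 in its names and CT00 in another label field, and the names were used.

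The 3 regions were added. Symbols were matched for 27836 transcripts. The transcript with the most reads per gene and a mean of at least 10 counts were kept, in the whole table. The 24 h fit used edgeR 4.0.16 in R 4.3.3 (TMM, glmQLFit and glmQLFTest on cosine and sine, Benjamini-Hochberg over 11747 genes, adjusted p under 0.05), with DESeq2 1.42.0 and JTK_CYCLE, rewritten in Python 3.11.15, as alternatives. The scripts were tested on simulated data. There the edgeR fit recovered 2 of 50 genes given a difference of 0.5 (log2) and 31 of 50 given 1. A gene that did not pass can therefore still have a rhythm of this size. Standard errors of phases and differences came from least squares on log2(CPM + 0.5). With 2 mice per time, errors over a time rest on 2 values, and precision comes from the 14 libraries together. Density used the total count of the library.

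Transcripts came from GRCm38.p6; of the 45 members 38 had the region lengths of the files within 1 nt per exon. Named genes were the rhythmic members, the 3 densest of each family, those next to the minimum of 10 counts and the rhythmic genes of the pathway list, unless stated otherwise. The values of 1 gene of that list are not reported here. The members, the gene lists and this rule were chosen with earlier results of these data known. Other genes named, among them Gstz1, Sult2a1, Sult3a1 and Sult1e1, were chosen after their values were seen. Replicates are separate mice of 1 time, and no label pairs mice across times.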

Additional observations from a re-analysis of the deposited data

How the results depend on the processing

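Of 12 rhythmic members (6 Gst, 4 Ugt and 2 Sult), 1251 genes and 10 pathway genes, scaling by the total count left 6 members, 0 of them Ugt, and 6 pathway genes, time as a factor 5 members (3, 1 and 1) and 751 genes, and JTK_CYCLE with Benjamini-Hochberg adjustment 5 members (3, 2 and 0), 425 genes and 4 pathway genes. JTK_CYCLE called 2057 genes on TMM-scaled CPM and 2594 on CPM of the total count, where 1 Ugt and 0 Sult members passed. With all transcripts in the fit 1947 were called, since isoforms add to the number. Without both CT24 libraries 2 Gst members passed. Leaving out each library gave 6 to 13 members, 2 to 6 Gst, 2 to 5 Ugt, 2 to 3 Sult, 956 to 1375 genes and 9 to 11 pathway genes, and all 12 phases stayed within 3 h; they did so under the other edgeR settings that give a phase except scaling by the total count (9), and under JTK_CYCLE on the total count only 5 did. The causes were not tested. DESeq2 size factors, upper quartiles, other minimums, CDS reads, DESeq2 (16 members), the halved CT16 counts and the subtraction at Ugt1a, chosen after seeing the data, gave 10 to 16 members. With the replicate block 12 members and 1237 genes were called; no label ties same-numbered mice together, and of 21 correlations of their deviations (-0.12 to 0.28) 4 were over 0.1, while in 5 of 7 times the best match had the same number, a hint from the data only. Levels of 19 of the 45 members stayed within 1 SD when reads of the whole transcript were used per kilobase. With 26-mers and 32-mers the count of members with mostly shared sequence was again 14.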

Other observations

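Ugt2b38 and Ugt2b37 of the chromosome 5 cluster, chosen after their values were seen, had a wide spread between the 2 mice of a time. Ugt2b38 had 11.3, 9.81, 10.4 and 5.62 CPM in the second mice of CT4, CT8, CT12 and CT16 and 3.25, 3.8, 4.05 and 2.05 in the first mice, and at CT20 the first mouse was the higher, with 7.13 and 2.24. Ugt2b37 was higher in the same mouse of each of these 5 times, with 1.93 and 0.804 at CT4 and 2.94 and 1.27 at CT20. In the first and second mice, Ugt2b38 had 2.5 and 2.69 at CT0 and 3.12 and 1.6 at CT24. Ugt2b37 had 0.625 and 0.832 at CT0 and 1.36 and 1.1 at CT24. The pooled SD between mice of a time was 0.86 for Ugt2b38 and 0.52 for Ugt2b37 on the log2 scale. The median over the 45 members was 0.21 and that over all genes 0.25. In other genes occur 54.7% of the 28-mers of Ugt2b38 and 36.9% of those of Ugt2b37. The fits gave adjusted p of 0.208 for Ugt2b38 and 0.289 for Ugt2b37.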
